A study of Schizosaccharomyces pombe with 2 samples.

Results

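The protein-coding genes that flank the centromeres of fission yeast (*Schizosaccharomyces pombe*) were taken from the genome annotation that the authors deposited with 2 H3K9me2 ChIP-seq libraries. A gene was a member when the near end of its coding span lay within 50000 bp outside the outermost repeat base of centromere 1 (chr1:3753687-3789421), centromere 2 (chr2:1603692-1644747) or centromere 3 (chr3:1070904-1137003). Genes with a mug, meu, rpl or rps name and a number in the alias field were left out. This removed 10 of 135 genes and left 125 of the 5155 coding genes of the 3 chromosomes. The left side of a centromere is the one with the lower coordinates, and distances are the bases between the repeats and the near end of the coding span.

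Both libraries, replicates 1 and 2, came from cells labelled Swi6D, which lack the heterochromatin protein Swi6 (swi6Δ). The cells were grown overnight in YES, a rich yeast extract medium, and chromatin was precipitated with a Wako antibody to histone H3 dimethylated at lysine 9 (H3K9me2). The study asked how far this mark extends at heterochromatin when Swi6 is absent. The deposited annotation carries no read or enrichment value of either library and the sources used here do not give their depth, so what follows describes the genes that border the repeats and not their methylation, and no test between samples was made.

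The centromeres of fission yeast consist of a central core, where the kinetochore assembles, flanked by outer repeats of the dg and dh type that are packed into heterochromatin. There, the methyltransferase Clr4 methylates H3K9, and HP1 proteins such as Swi6 bind the mark. Clusters of tRNA genes and inverted repeats named IRC act as boundaries between heterochromatin and the neighbouring genes. The genes described here lie outside these repeats, and their chromatin state in wild-type cells was not examined here.

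The member nearest to each boundary is shown first, which is also the nearest coding gene except on the left of centromere 3, where the left-out gene meu27 lies closer. The first 30 coding bases of these 6 genes are printed below from the RefSeq reference sequence (build ASM294v3), 5′ to 3′ on the gene's own strand, with the start codon in capitals. They were chosen because the boundary distances given below end or begin at these genes.
per1 (left of centromere 1, chr1:3749695-3749724, plus strand): ATGtcgtcgccagatcgctctattgacatt
emc5 (right of centromere 1, chr1:3790980-3791009, plus strand): ATGgaaagctcgacaataaatgcaaaaaaa
rpb1 (left of centromere 2, chr2:1591154-1591183, plus strand): ATGagcgggattcaggtatgttgaacgtat
yox1 (right of centromere 2, chr2:1648235-1648264, plus strand): ATGagtctttctgattctccatctaaatct
chk1 (left of centromere 3, chr3:1060020-1060049, plus strand): ATGgctcaaaaattagataactttccttac
SPCC4B3.18 (right of centromere 3, chr3:1144012-1144041, minus strand): ATGccagaaatggataaatctaacgatttc
In rpb1 the printed stretch already runs into the gene's first intron. All 125 members had a whole reading frame on this sequence, from a start codon to a stop codon. A RefSeq coding gene of the same ID existed for 124 members, and 118 of these spans ended and began at the same bases in both.

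The introns of the genes near the boundaries show the splice signals of this yeast, namely a donor that opens with GT, a branch sequence near the 3′ end and a closing AG. For each side the first intron, in the deposited annotation, of the member closest to the repeats that has an intron is shown. On the left of centromere 1 this is the third member, prm1, since per1 and lys1 have none. Of each intron the donor is printed with 12 bases of the exon before it and 18 bases of the intron, of which the first 6 are in capitals, and the acceptor as the last 28 bases, with the branch sequence and the AG in capitals.
prm1 donor (chr1:3738453-3738482, plus strand): attttgaagaagGTTTGTtatactagtctt
prm1 acceptor (chr1:3738477-3738504, plus strand): agtctttcaaatttaatCTAACcaatAG
emc5 donor (chr1:3791100-3791129, plus strand): cttcctttagacGTATGTctttaccacatg
emc5 acceptor (chr1:3791126-3791153, plus strand): catgcggcataaataaaCTAACatacAG
rpb1 donor (chr2:1591157-1591186, plus strand): agcgggattcagGTATGTtgaacgtattta
rpb1 acceptor (chr2:1591176-1591203, plus strand): gaacgtatttaccattaCTAATacatAG
rec6 donor (chr2:1649540-1649569, minus strand): tcttattattcgGTATGAtactttcaattc
rec6 acceptor (chr2:1649473-1649500, minus strand): aaagagctctcttCTGACtttcttttAG
chk1 donor (chr3:1060076-1060105, plus strand): ggcttttgcttcGTATGAattttgatttga
chk1 acceptor (chr3:1060105-1060132, plus strand): aaaaatactatataCTAACttaagcaAG
cmc2 donor (chr3:1144635-1144664, plus strand): tttaaccaaagcGTAAGAaacttattcatc
cmc2 acceptor (chr3:1144681-1144708, plus strand): ggatatgtaaCTAATatggaatatgcAG
The introns shown are 40 bp in prm1, 42 bp in emc5, 35 bp in rpb1, 85 bp in rec6, 45 bp in chk1 and 62 bp in cmc2.

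Gene number differed more between the 6 sides than between the sides as a whole and the arms. The left of centromere 1 held 17 members and its right 26, the left of centromere 2 held 18 and its right 21, and the left of centromere 3 held 20 and its right 23. This gave 20.8 ± 3.31 members per side (SD, n = 6 sides). Consecutive 50-kb windows of the chromosome arms, counted by the same rule, held 19.8 ± 2.83 genes (SD, 228 windows; range 11 to 27). The arm windows begin 50 kb outside the repeats and stop 100 kb before the chromosome ends. The difference of the means was thus smaller than the SD of either set. These SDs describe the spread of single sides and windows and not the precision of a mean. Without the right of centromere 1 the mean of the sides was 19.8, against 19.82 in the arm windows. Against a separate arm value of 19.79 genes per 50 kb, the difference was 1.04 with all sides and 0.00631 without the right of centromere 1. On the right of centromere 1, 223 of the 228 arm windows held fewer genes than the 26 members, while on its left 184 held more than the 17 members.

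**Figure D1:**
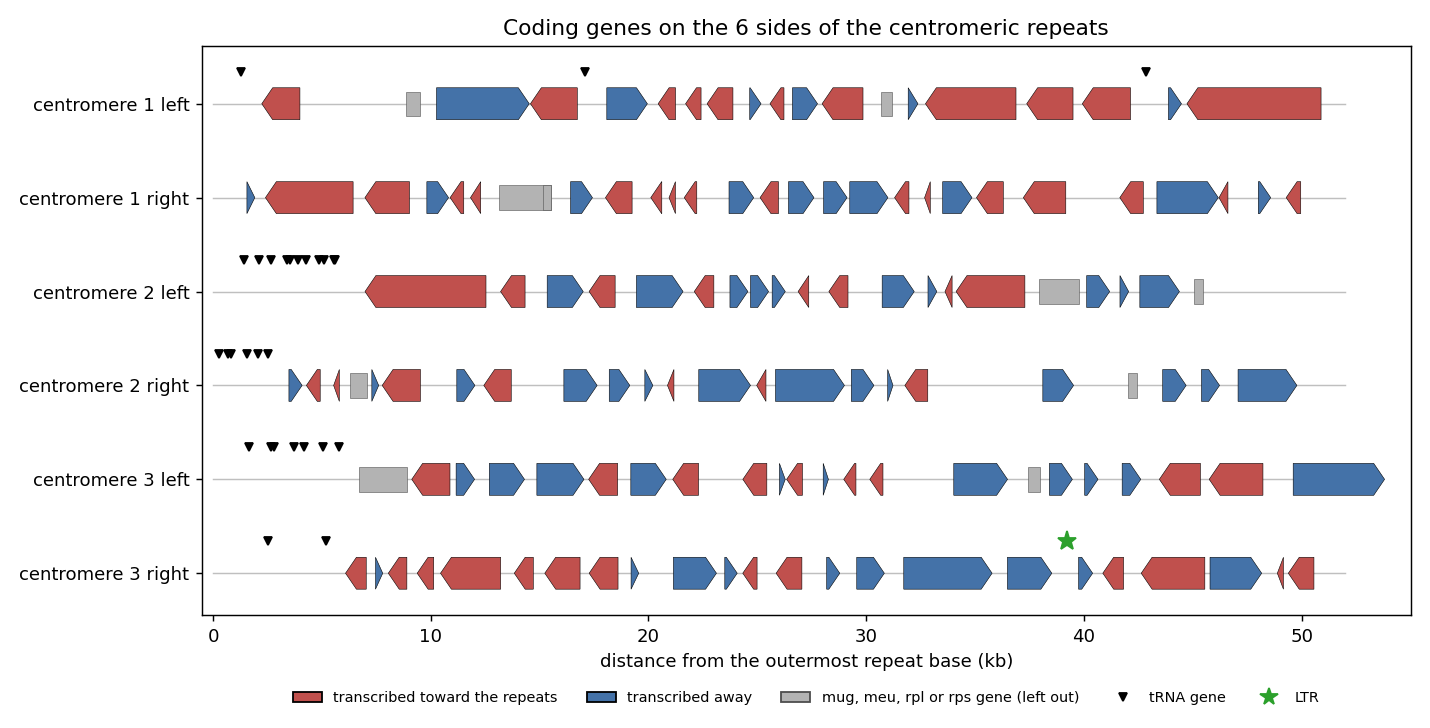
Coding genes on the 6 sides, drawn by distance from the outermost repeat base (kb), one row per side; arrows are members, red where transcribed toward the repeats and blue where transcribed away, grey boxes are the 10 genes left out by name, triangles are tRNA genes and the star is an LTR. The first members begin between 1558 and 9128 bp from the repeats, and 27 of the 29 tRNA genes lie within the first 10 kb.

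The share of bases that are coding was lower on 5 of the 6 sides than in the median arm window. It was 61.3% to the left and 57.0% to the right at centromere 1, 52.6 and 46.5% at centromere 2, and 48.5 and 57.9% at centromere 3. All coding genes were counted here, the left-out ones included. The mean of the sides was 54.0 ± 5.76% (SD, n = 6), against 59.1 ± 6.28% in the arm windows (SD, 228 windows), and 5 of the 6 sides lay below the arm median of 59.3%. The median windows of the side's own arm had 61.2 and 59.6% at centromere 1, 57.1 and 60.2% at centromere 2, and 57.2 and 54.5% at centromere 3 (left before right). The right of centromere 3 thus lay above its own arm, and the left of centromere 1 was level with its own. The difference of these means was smaller than either SD, which is the spread of single sides or windows and not the precision of a mean. On the right of centromere 2 only 9 arm windows had a lower coding share. The members were also shorter, with a median coding length of 933 bp, against 1179 bp in the 4564 genes of the arms. By side the median coding length was 1620 and 837 bp at centromere 1, 912 and 945 bp at centromere 2, and 1120.5 and 951 bp at centromere 3 (left before right), so the left of centromere 1 was the exception. Coding length was examined after the values were seen, and no test was made.

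The members with the longest coding span on each side encode enzymes and subunits of general complexes. On the left of centromere 1 this was ubr11, a ubiquitin ligase component that recognizes N-terminal residues of its substrates (6159 bp), and on the right rad50, a subunit of the MRN complex in DNA double-strand break repair (4026 bp). At centromere 2 these were rpb1, whose product is the largest RNA polymerase II subunit (5557 bp), and cdc28, an RNA helicase of pre-mRNA splicing (3168 bp). At centromere 3 they were the predicted RNA helicase gene ucp12 (4198 bp) and the predicted lysophospholipase gene nte1 (4057 bp).

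**Figure D2:**
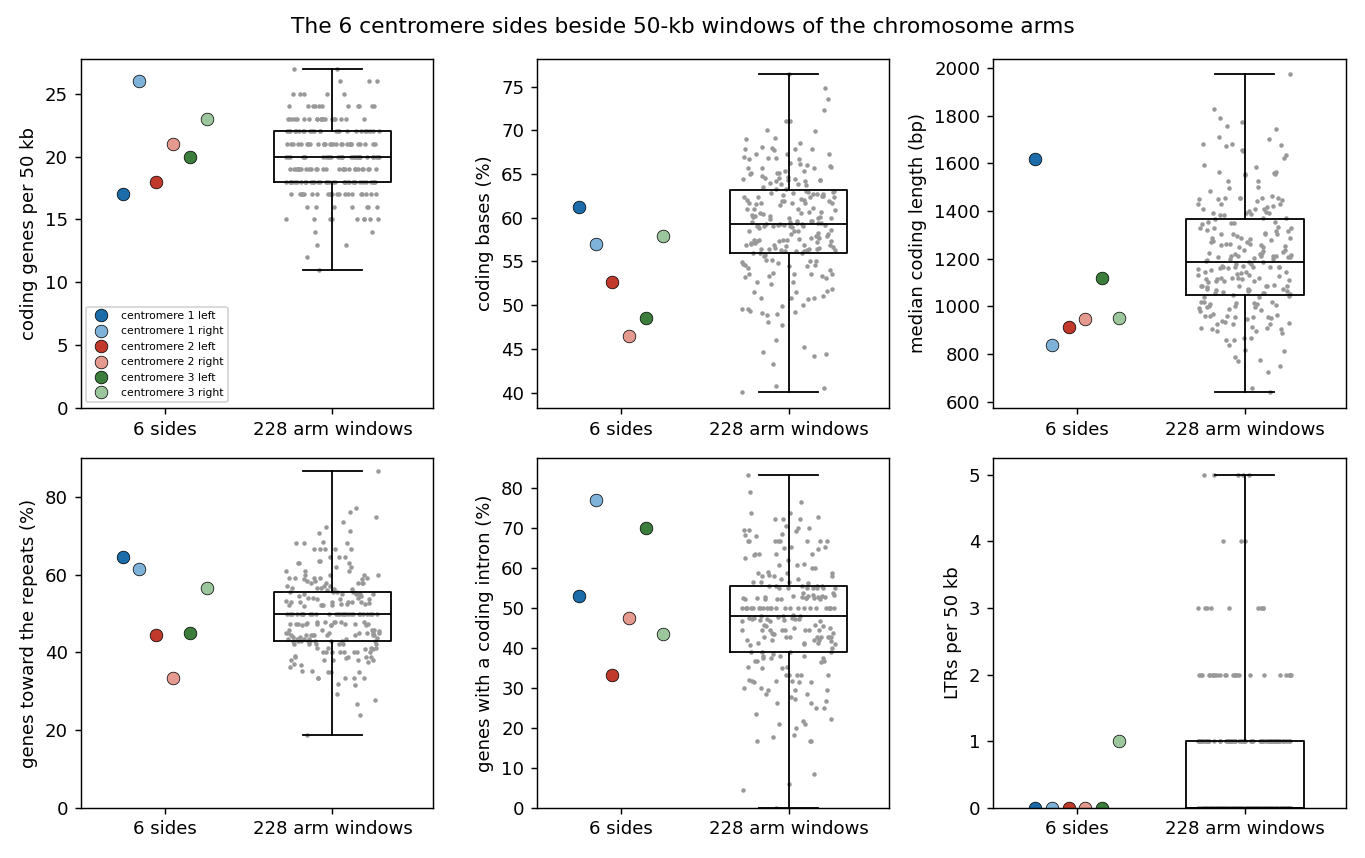
Coding genes per 50 kb, coding bases (%), median coding length (bp), genes transcribed toward the repeats (%), genes with a coding intron (%) and LTRs per 50 kb, for the 6 sides (coloured points) and the 228 arm windows (grey points; boxes span the quartiles with the median as a line, whiskers the whole range). All 6 sides lie within the range of the arm windows in each panel, 5 of 6 have a coding share under the arm median of 59.3%, and 5 of 6, not the same ones, have no LTR.

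Along the 50 kb, the members were not spread evenly. Counted over all 6 sides in steps of 10 kb outward, there were 16, 26, 38, 22 and 23 members. The first 10 kb held 1 member on the left of each centromere, and 4, 5 and 4 on the right of centromeres 1, 2 and 3. Its mean of 2.67 ± 1.86 members (SD, n = 6 sides) was set against 3.96 ± 1.27 genes in arm windows of 10 kb (SD, 1150 windows). Of those arm windows 2.26% held 0 or 1 gene. With the left-out names kept in both, rpl1002, meu27 and rps402 added 1 gene each on the left of centromeres 1 and 3 and the right of centromere 2. The first 10 kb then held 2, 1 and 2 genes on the left and 4, 6 and 4 on the right of centromeres 1, 2 and 3, with a mean of 3.17 ± 1.83, against 4.18 ± 1.28 in the arm windows. Of the arm windows counted that way, 8.87% held 2 genes or fewer and 1.65% held 0 or 1. From 20 to 30 kb the sides held 7, 8, 6, 5, 6 and 6 members (centromere 1 left and right, then centromeres 2 and 3), a mean of 6.33 ± 1.03. Every side was thus at 5 or more there, a count that 31.6% of the arm windows reached, and 5 of the 6 were at 6 or more, which 10.6% reached. The interval from 20 to 30 kb was singled out after its values were seen, and this excess was not tested.

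Coding bases made up a mean of 35.6% of the first 10 kb (24.2 to 62.8% by side), against a mean of 59.1% in arm windows of that size. The right of centromere 1, where emc5, rad50 and sdh1 begin close to the repeats, was the side with 62.8%. From 10 kb outward the means of the sides were 63.9, 57.4, 57.0 and 56.0% in successive steps. The tRNA genes, which are short and not coding, were concentrated in the first 10 kb, with 27 of 29. Over 50 kb there were 4.83 ± 3.97 per side (SD, n = 6 sides), against 0.491 ± 0.760 in the arm windows (SD, 228 windows). The sides ranged from 0 on the right of centromere 1 to 11 on the left of centromere 2. The part of the tRNA genes in the low coding share was not tested.

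**Figure D3:**
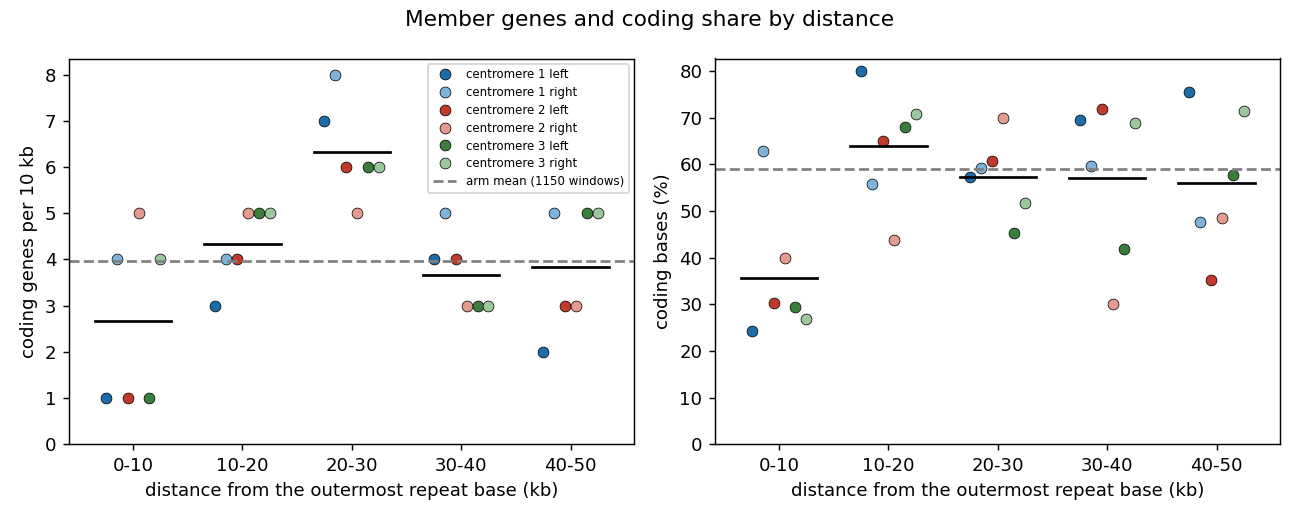
Members per 10 kb (left) and share of coding bases in percent (right) against the distance from the outermost repeat base in kb; points are the 6 sides, black bars their mean and the dashed line the mean of 1150 arm windows of 10 kb. The mean rises to 6.33 members at 20 to 30 kb, and the coding share is lowest, at 35.6%, in the first 10 kb.

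The distance from the repeats to the nearest member varied over the 6 boundaries. At centromere 1 it was 2240 bp to per1, a plasma membrane amino acid permease, on the left and 1558 bp to emc5, a predicted subunit of the ER membrane protein complex, on the right. At centromere 2 it was 6981 bp to rpb1 on the left and 3487 bp to yox1, a negative regulator of the MBF transcription complex, on the right. At centromere 3 it was 9128 bp to chk1, the DNA damage checkpoint kinase, on the left and 6087 bp to SPCC4B3.18, a predicted phosphopantothenate-cysteine ligase of coenzyme A synthesis, on the right. On the left of centromere 3 the left-out gene meu27 lies closer than chk1, at 6708 bp. Taking the nearest coding gene of any name, gaps between neighbouring arm genes were as long as these in 5.76 and 13.7% of 4812 cases at centromere 1, 0.104 and 1.72% at centromere 2, and 0.125 and 0.270% at centromere 3 (left before right). The measures are not alike, since a boundary gap ends at a repeat and an arm gap at another gene. These shares therefore do not show that the boundary gaps are unusual. The boundary gaps of centromeres 2 and 3 contained 11 and 6, and 7 and 2 tRNA genes, while those of centromere 1 contained 1 and 0.

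The first 5 members on each side were of mixed function. On the left of centromere 1, per1 was followed by lys1, the aminoadipate reductase of lysine synthesis (10265 bp), prm1, a predicted membrane protein of conjugation (14580 bp), gua2, a predicted GMP synthase (18087 bp), and SPAC15E1.10, a predicted PI31 proteasome inhibitor (20446 bp). On the right, emc5 was followed by rad50 (2409 bp), sdh1, which encodes a predicted subunit of succinate dehydrogenase (6978 bp), azr1, a protein phosphatase (9822 bp), and cdd1, a predicted cytidine deaminase (10891 bp). The right of centromere 1 therefore had 4 members within 10 kb, and its left only per1.

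On the left of centromere 2, rpb1 was followed by the HMG box gene SPBC28F2.11 (13208 bp), ngg1, a subunit of the SAGA coactivator (15349 bp), toa1, the predicted large subunit of the general transcription factor TFIIA (17274 bp), and SPBC28F2.08c, a predicted subunit of the HRD ubiquitin ligase (19447 bp). After rpb1, the next member on this side begins over 10 kb from the repeats. On the right, yox1 was followed by rec6, which acts in meiotic recombination (4290 bp), dpm2, a predicted subunit of dolichol-phosphate mannose synthase (5541 bp), ymr31, annotated as a predicted mitochondrial ribosomal protein (7295 bp), and the predicted acetyl-CoA transporter gene SPBC21B10.09 (7771 bp). All 5 begin within the first 10 kb. The product of ymr31 is that of the deposited annotation, and RefSeq names this gene kgd4.

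On the left of centromere 3, chk1 was followed by ubc11, a ubiquitin-conjugating enzyme (11166 bp), SPCC1259.12c, a predicted Ran GTPase binding protein (12690 bp), gyp2, a predicted GTPase activating protein (14875 bp), and pgp1, a mitochondrial metallopeptidase (17254 bp). On the right, SPCC4B3.18 was followed by cmc2, a predicted copper binding protein of the mitochondrial inner membrane (7464 bp), cbp3, a predicted assembly factor of the cytochrome bc1 complex (8052 bp), tip41, a regulator of type 2A phosphatases (9379 bp), and mid1, which places the division ring at the cell middle (10449 bp). Both sides thus lack members in the first 6 kb, and the left in the first 9 kb.

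Of 50 kinetochore and heterochromatin genes looked for by name, 49 were found in the annotation. A single one was a member, sgo2, which encodes a shugoshin that acts at the inner centromere. It lies on the left of centromere 1, at 37373 bp. This is 2.04% of the 49 genes found, beside 2.56% for the share of members among the 4885 genes of the 3 chromosomes that the naming rule kept. The list does not hold 2 other members annotated for chromosome segregation, namely moa1, a meiotic cohesin-associated protein on the left of centromere 1 (24652 bp), and ask1, a subunit of the DASH complex at the kinetochore on the left of centromere 2 (40127 bp), which were picked after the members were seen.

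The direction of transcription was close to even over all members. Of the 125 members 64 (51.2%) were transcribed toward the repeats, against 49.6% of the arm genes. By side, 11 of 17 (64.7%) to the left and 16 of 26 (61.5%) to the right pointed toward the repeats at centromere 1, 8 of 18 (44.4%) and 7 of 21 (33.3%) at centromere 2, and 9 of 20 (45.0%) and 13 of 23 (56.5%) at centromere 3. The SD over the sides, 12 percentage points, was near that over the arm windows, 10.3, whose median was 50% (range 18.75 to 86.7%). Without the left or the right of centromere 1 the difference from the arm genes turned negative (-0.553 and -1.14 percentage points, against 1.57 with all sides). The extremes were the right of centromere 2, below which 7 arm windows lay, and the left of centromere 1, above which 17 lay.

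Close to the repeats more members pointed toward them. In the first 10 kb, 11 of 16 did (68.75%). Among the first 5 of each side it was 18 of 30, but these 30 include all of the 16, so the counts are not independent. Of the 6 nearest members, which are among the same 16, per1, rpb1, chk1 and SPCC4B3.18 were transcribed toward the repeats, and emc5 and yox1 away from them. From 10 kb outward the counts were 12 of 26, 20 of 38, 11 of 22 and 10 of 23. The counts of the first 10 kb are small and no test was made.

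Neighbouring genes met tail to tail and head to head in shares close to those of the arms. With the left-out genes kept in their places, the sides held 129 neighbouring pairs. Of these 35 (27.1%) were convergent, 35 (27.1%) divergent and 59 (45.7%) tandem, against 27.5, 27.5 and 45.0% of the 4812 arm pairs. The median distance between coding spans was 306 bp for convergent, 797 bp for divergent and 617 bp for tandem pairs on the sides, against 375, 1008.5 and 735 bp in the arms. The longest run of neighbours in the same direction was 6 genes, on the right of centromere 3, and it was 3 to 5 on the other sides. The widest distance between neighbouring coding spans, 5284 bp, separated ubp11, a ubiquitin hydrolase, from ran1, the kinase that restrains meiosis, on the right of centromere 2.

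The share of genes with an intron was higher among the members, an excess that rested largely on 1 side. At least 1 intron between coding parts was annotated in 69 of the 125 members (55.2%), against 47.4% of the arm genes. By side, 9 of 17 (52.9%) to the left and 20 of 26 (76.9%) to the right had an intron at centromere 1, 6 of 18 (33.3%) and 10 of 21 (47.6%) at centromere 2, and 14 of 20 (70.0%) and 10 of 23 (43.5%) at centromere 3. The mean of the sides, 54.0 ± 16.5% (SD, n = 6), differed from that of the arm windows, 47.3 ± 14.5% (SD, 228 windows), by less than either SD. Here too the SD is the spread of single sides or windows, and no test was made. The excess over the arm genes was 7.79 percentage points with all sides, 2.08 without the right of centromere 1, 4.97 without the left of centromere 3 and 0.779 with a limit of 100 kb. A higher share than on the right of centromere 1 was found in 2 arm windows, and a higher share than on the left of centromere 3 in 10. The other 4 sides lay well inside the range of the windows.

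The members had 152 coding introns in all, or 1.22 per gene, against 1.03 in the arm genes. Of the members, 24 (19.2%) had 3 introns or more, against 13.7% of the arm genes. The most, 6 introns each, were found in ppk3, a HEAT repeat protein left of centromere 1, in rpb1, and left of centromere 3 in chk1 and SPCC825.02, a predicted glucosidase II subunit. On the right of centromere 1, rad50, cdd1 and cbs2, a predicted activator of a protein kinase, had 4 each. On the right of centromere 2 the most was 3, in SPBC21B10.09, and on the right of centromere 3 it was 4, in hem12, a predicted enzyme of heme synthesis.

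**Figure D4:**
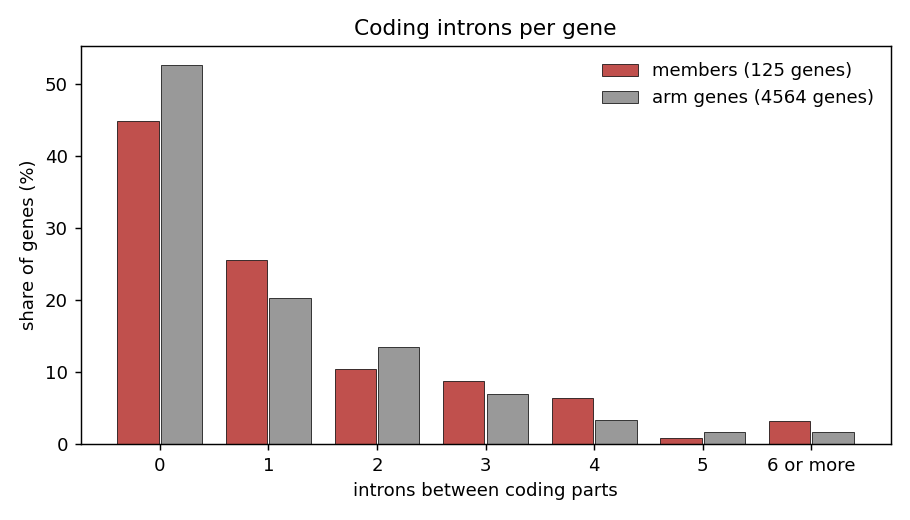
Share of genes (%) by their number of introns between coding parts, for the 125 members (red) and the 4564 arm genes (grey). Genes without an intron make up 44.8% of the members and 52.6% of the arm genes, and genes with 1 intron 25.6 and 20.3%.

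The introns of the members were short and carried the usual signals. Their median length was 50 bp (range 35 to 315 bp), against 55 bp in the arms, and 133 (87.5%) were under 100 bp, against 79.9%. The shortest, at 35 bp, is the rpb1 intron printed above. All 152 began with GT and ended with AG, as did 99.3% of the 4683 arm introns. The donor GTAAGT opened 39 of the introns (25.7%), against 27.1% in the arms. The donor GTATGT, printed for emc5 and rpb1, opened 33 (21.7%), against 19.8%. The donors GTAAGA of cmc2 and GTATGA of rec6 and chk1 opened 11 (7.24%) and 8 (5.26%), against 6.58 and 4.93% in the arms. The branch sequence CTAAC, printed for prm1, emc5 and chk1, was present in the last 60 bases of 61 introns (40.1%), against 44.9% in the arms. When CTAAT, printed for rpb1 and cmc2, was counted as well, together with CTGAC, printed for rec6, and the related letters CTGAT, a match was present in 117 (77.0%), against 74.9% in the arms (sense strand of the intron only; matches are a description and not mapped branch points). Introns lay mostly near the 5′ end, with 81 (53.3%) in the first 25% of the coding sequence, against 49.6% in the arms.

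Untranslated regions (UTRs) were annotated about as often as in the arms and were slightly shorter. A 5′ UTR was annotated for 114 of the 125 members (91.2%), against 92.5% of the arm genes, with a median of 163 bp, against 180 bp. A 3′ UTR was likewise annotated for 114 members (91.2%), against 93.3%, with a median of 237 bp, against 270 bp. Neither UTR was given for 7 members. By side, the left of centromere 3 had a 5′ and a 3′ UTR for all 20 members, and the right of centromere 3 for 19 of 23 each (82.6%). The right of centromere 2 had a 3′ UTR for all 21 members and the left of centromere 2 for 15 of 18 (83.3%). On 5 of the 6 sides the median 3′ UTR (174, 182, 243, 181 and 268 bp at the left and right of centromere 1, the left and right of centromere 2 and the right of centromere 3) was under the median of the arm windows, 272.25 bp. The left of centromere 3 had 372.5 bp.

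A few members had very long annotated UTRs (summed over all UTR parts of a gene). A 5′ UTR over 1000 bp was given for 8 members (6.40%), against 4.51% of the arm genes, and a 3′ UTR over 1000 bp for 11 (8.80%), against 8.83%. The longest 5′ UTR on each side was 1019 bp in ppk3 and 2617 bp in cgr1, a predicted ribosome biogenesis factor, at centromere 1, 402 bp in sfr1, a recombination repair protein, and 2116 bp in ran1 at centromere 2, and 1145 bp in ucp12 and 1198 bp in SPCC4B3.06c, a predicted FMN reductase, at centromere 3. The longest 3′ UTR on each side was 4473 bp in prm1 and 2140 bp in the sequence orphan SPAC4H3.16 at centromere 1, 434 bp in SPBC29B5.04c, a predicted actin patch protein, and 1307 bp in yox1 at centromere 2, and 2615 bp in chk1 and 1236 bp in SPCC4B3.09c, a predicted mitochondrial ribosomal protein, at centromere 3. The 3′ UTR of chk1 is listed in 2 parts, of which 443 bp lie within its annotated mRNA and 2172 bp beyond the end of it. With only the bases inside the mRNA counted, the longest 3′ UTR on the left of centromere 3 was the 1049 bp of naa40, a predicted histone N-acetyltransferase, and 10 of the 125 members had a 3′ UTR over 1000 bp, against 8.59% of the arm genes. The left of centromere 2 was the side without any UTR over 1000 bp. On the right of centromere 1, 6 of the 26 members (23.1%) had a 3′ UTR over 1000 bp.

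**Figure D5:**
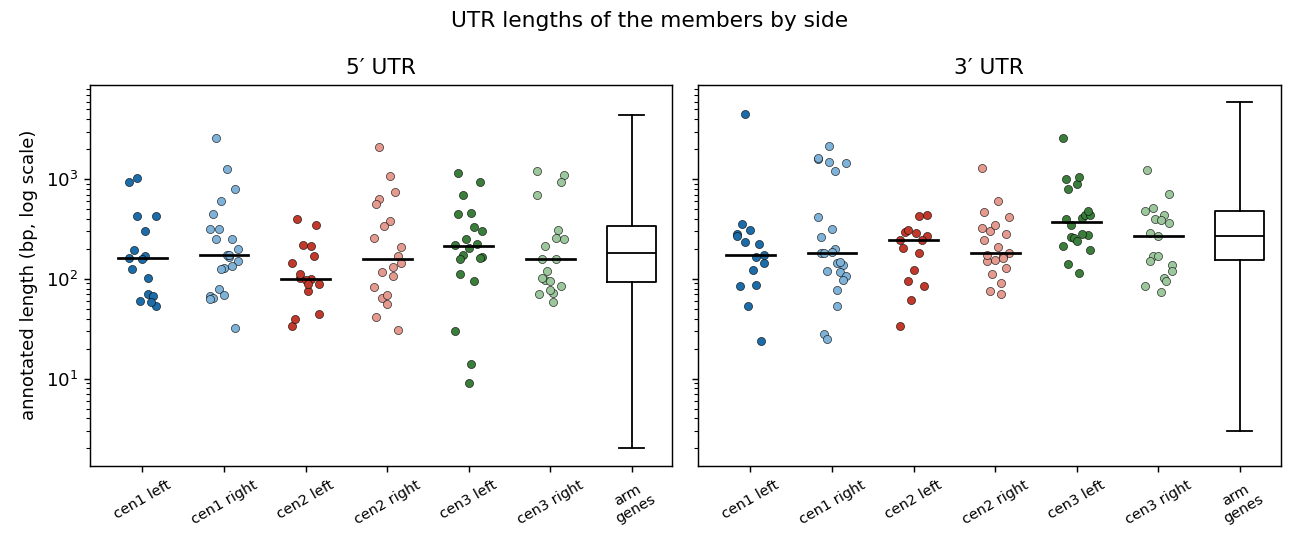
Annotated 5′ UTR (left) and 3′ UTR (right) lengths in bp on a log scale, for the members of each side (points; the bar is the median) and for the arm genes (box, quartiles and median; whiskers, whole range); genes without the UTR are not drawn. The medians of the sides lie between 100.5 and 211.5 bp for 5′ UTRs and between 174 and 372.5 bp for 3′ UTRs, and the longest point is the 4473 bp 3′ UTR of prm1.

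Some UTRs, both long and short, reached over neighbouring genes. A UTR of 25 members (20.0%) covered coding bases of another gene, against 16.5% of the arm genes. Among the 25 were members with short UTRs only, such as lys1 (5′ UTR 71 bp, 3′ UTR 86 bp) and ymr31 (65 and 181 bp). The 3′ UTR of prm1 ran across the convergent gene lys1, so that the 2 transcripts overlapped by 4504 bp. Both parts of the 3′ UTR of chk1 reached over meu27, the left-out gene between chk1 and the repeats. On the right of centromere 1, SPAC1F12.05, a predicted regulator of endocytosis, and SPAC1F12.06c, a predicted DNA repair endonuclease, overlapped by 2784 bp, and azr1 and cdd1 by 2602 bp, each transcript entering the coding sequence of the other. The largest overlaps between convergent members elsewhere were 97 bp for toa1 and ngg1 and 1200 bp for yox1 and rec6 at centromere 2. At centromere 3 they were 1374 bp for taf8, a predicted TFIID subunit, and the sequence orphan SPCC1259.16, and 1076 bp for SPCC4B3.09c and lsg1, a predicted subunit of the Lsk1 kinase complex. The convergent pair emc5 and rad50, which the study names, overlapped by only 4 bp. Transcripts overlapped in 21 of the 35 convergent pairs, against 66.6% in the arms, with a median overlap of 419 bp, against 215.5 bp. Noncoding RNAs antisense to the coding span were annotated for 25 members (20.0%), against 15.5% of the arm genes, and rad50 (SPNCRNA.936) and sgo2 (SPNCRNA.930) were among them.

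Long terminal repeats (LTRs) of Tf retrotransposons, which remain as solo copies after recombination, were nearly absent from the sides. The 6 sides together held 1 LTR in 300 kb. It lies on the right of centromere 3 (chr3:1176250-1176592, minus strand, 343 bp), 39246 bp from the repeats. The 2 members within 1000 bp of it are SPCC4B3.02c, a predicted Golgi transport protein Got1 (166 bp away), and SPCC4B3.03c, a predicted mitochondrial morphology protein (720 bp away). This is 1.60% of the members, against 5.43% of the arm genes. The other 5 sides had 0 LTRs, and so had 51.8% of the 228 arm windows, which held 182 LTRs in all, with a mean of 0.798 and at most 5 per window. The median window of the side's own arm held 0 LTRs on both sides of centromeres 1 and 2, and 1 and 2 on the left and right of centromere 3. Beyond 50 kb, the nearest LTR was 167263 and 134806 bp from the repeats at centromere 1, 70740 and 161024 bp at centromere 2, and 111972 and 58981 bp at centromere 3 (left before right). The right of centromere 3 had 3 LTRs between 50 and 100 kb, the left of centromere 2 had 1, and the other 4 sides had none. None of the 237 LTRs of the annotation lay within the centromeric repeats. The median distance from a member to its nearest LTR was 94934 bp, against 26448 bp for the arm genes. Since members of a side share the same nearest LTRs, this value rests on a few LTRs.

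The annotation also records deletion phenotypes and conservation. A deletion was listed as inviable for 25 of the 114 members with a phenotype (21.9%), against 27.6% of the arm genes. They were 3 on each side of centromere 1, 5 and 6 (left before right) at centromere 2, and 4 on each side of centromere 3. Among them were rpb1, at 6981 bp from the repeats, dpm2, at 5541 bp, and SPCC4B3.18, at 6087 bp, each within the first 10 kb. The annotation marks 89 members (71.2%) as conserved in vertebrates, against 71.6% of the arm genes, and 8 (6.40%) as sequence orphans, against 6.29%. It lists 0 pseudogenes and 2 dubious genes (SPAC4H3.17 and SPBC27.05) among the 125 members, against 18 and 113 among the 4564 arm genes. The counts of the members are too small to show a difference. Deletion phenotype, conservation, and antisense RNA were examined after the values were seen.

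Few members contained repeated sequence. A stretch of 50 bases that occurs more than once in the genome was found in the coding span of 2 members (1.60%), against 2.30% of the arm genes. Whether the other copy lies in the same gene was not examined. These were SPAC1F12.03c, annotated as a cytochrome c oxidase transmembrane region, with 2.86% of its positions, and rpb1, with 0.690%. The windows of the sides as a whole, with the bases between genes, were more repeated, at 2.29 to 8.01% of positions, and all 6 were above the upper quartile of the arm windows (0.618%).

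The border of 50000 bp fell between ubr11 (44733 bp) and mde6 (53849 bp) on the left of centromere 1 and between SPAC4H3.07c (49291 bp) and SPAC4H3.08 (52159 bp) on its right. At centromere 2 it fell between SPBC29B5.04c (42569 bp) and isp4 (50900 bp) and between sre1, a sterol-responsive transcription factor (47080 bp), and SPBC19C2.10 (50473 bp). At centromere 3 it fell between ucp12 (49612 bp) and SPCC895.08c (54783 bp) and between cwf5, a predicted splicing factor (49389 bp), and SPCC550.03c (50731 bp).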

How the data were processed

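H3K9me2 ChIP-seq was performed on 2 libraries of swi6Δ cells. The file used here is a genome annotation that the authors deposited once for both libraries (33839 lines), whose values are positions counted from base 1. Per the file, the score column is empty, so depth and precision of the libraries are unknown. The aligner and the build used for the reads were not given in the sources used here. The 3 chromosomes have the same lengths in the deposited annotation and in ASM294v3.

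Coding introns are spaces between coding parts of a gene, and UTRs are the annotated UTR parts. Sides were set beside arm genes and arm windows of 50 kb. The code was tested on simulated data with planted genes. Python 3.11.15, numpy 2.4.6 and matplotlib 3.10.9 were used.

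The alternatives changed the distance (25 and 100 kb), kept the left-out names, used gene midpoints, left out dubious genes, kept chromosome ends, counted UTR introns, required UTRs of 100 bp, counted full-length Tf elements and left out each side. Chosen after seeing the data, UTR bases outside the annotated mRNA were left out and coding shares were tried at the other distances. The genes named are the first 5 per side, those with the most introns, longest span or longest UTRs, those near an LTR, those in the largest convergent overlaps, emc5, rad50, the members of a list of kinetochore and heterochromatin genes (cnp20 was not found) and, chosen after their values were seen, the other genes singled out. The members and lists were chosen with earlier results of these data known.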

Additional observations from a re-analysis of the deposited data

How the results depend on the processing

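No paired analysis was possible because no value of either library was analysed here and no test was made. With limits of 25 and 100 kb there were 61 and 244 members, and leaving out each side left 99 to 108. The differences between sides and arms are given next. They moved by less than 1 SD over the sides under the alternatives that kept all 6 sides. Leaving out 1 of 6 sides can move a mean by only a part of that SD, so this measure says nothing about those runs. A move below 1 SD does not mean that a difference was stable, as the ranges show. Gene density (genes per 50 kb) was 1.04 higher on the sides (0.520 to 1.60 under the other settings, 0.00631 to 1.81 leaving out each side). The share transcribed toward the repeats was 1.57 percentage points higher (0.734 to 7.81, and -1.14 to 5.18 leaving out each side, with a negative value in 2 of 6 cases). The share with introns was 7.79 points higher (0.779 at 100 kb to 8.73, and 2.08 to 11.5). The differences were -1.26 points for 5′ UTRs (-4.07 to -0.292, and -2.94 to 0.675) and -2.07 points for 3′ UTRs (-6.45 to 0.227, the positive value at 25 kb, and -3.85 to -0.136). For LTRs per 50 kb it was -0.666 (-0.826 to -0.420, and -0.833 to -0.633). For coding bases, added after the data were seen, it was -5.10 points (-8.30 at 25 kb to -3.95, and -6.56 to -3.60). The main arm values behind these differences were 19.79 genes and 0.833 LTRs per 50 kb and 59.06% coding bases. They differ slightly from the means of the arm windows given above. Counting only UTR bases within the mRNA, also added later, left both UTR shares as they were. With 6 sides, and genes of a side not independent, small differences cannot be resolved.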

Other observations

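The systematic names of the members end in c for genes on the minus strand on some sides and not on others. The letter matched the minus strand, or its absence the plus strand, in 17 of 17 and 24 of 26 members at centromere 1, 18 of 18 and 9 of 21 at centromere 2, and 19 of 20 and 5 of 23 at centromere 3 (left before right), against 85.9% of the arm genes. All directions given above were therefore read from the strand column and not from the names.

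The coding spans of 6 members differed from those of RefSeq, namely gpi17, SPAC4H3.06, rec6, SPCC1259.12c, naa40, and hem12. In rec6, the deposited span is 1649038 to 1649671, against 1649038 to 1650156 in RefSeq, both on chromosome 2. The small gene SPAC1F12.03c had no RefSeq coding gene of the same ID. The members moa1, sfr1, and ask1 carry the names mug159, mug13, and mug181 in another field than the alias, so the naming rule kept them.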
